A study of Mus musculus with 15 samples.

Results

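The enzymes described here build and cap the sugar chains of glycoproteins and glycolipids: they are the genes whose symbol starts with St3gal, St6gal, St8sia, Fut, B3gnt, B3galt, B4galt, B4galnt, Galnt, Gcnt, Chst or C1galt. They were chosen by name alone. The rule took 165 of the 44290 array features, which belong to 91 of the 19076 genes measured, and all 91 were tested. One of them, Fut4-ps1, is a pseudogene. By their textbook roles 19 start mucin-type O-glycans, 5 set their core or branch, 15 extend chains, 5 are beta3-galactosyltransferases, 4 add terminal GalNAc, 20 add sialic acid, 9 add fucose and 14 add sulfate.

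Colon RNA of 15 male mice, 1 mouse per array, was compared on two-colour Agilent arrays against a pooled reference RNA. Genotype and age gave the groups: C57BL/6J mice (C57) of 7 weeks (4 mice: 43, 44, 45 and 46) and of 12 weeks (4 mice: 63, 64, 65 and 66), and interleukin-10-deficient B6.129P2-Il10<tm1Cgn>/J mice (Il10-/-) of 7 weeks (3 mice: 75, 77 and 78) and of 12 weeks (4 mice: 92, 94, 95 and 96). All of them, controls included, had been given Enterococcus strains and a complex intestinal flora by mouth, ate a purified AIN-76A diet and were housed singly. The Il10-/- mice of 7 weeks on the arrays were those without colon inflammation, whereas those of 12 weeks had colitis. The tissue was whole-wall colon, so fewer cells of a type and less RNA per cell cannot be told apart. The genotype and age of each array were read from its title, since the other labels give the same strain and age throughout.

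Transferases of the Golgi add sugars one at a time, and the set of enzymes a cell expresses shapes the chains it makes. O-glycans of mucins begin with a GalNAc placed by a Galnt enzyme, are built into cores by C1galt1 and the Gcnt enzymes, are lengthened by alternating B3gnt and B4galt enzymes, and end in sialic acid, fucose or sulfate. The gut lining carries such chains on secreted and membrane mucins, and on glycolipids such as the gangliosides, whose first member GM3 is made by St3gal5.

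Each value is a log2 ratio of colon over pool, so 0 means the same signal as the pool. A difference between groups is in log2 units ± SE from limma, where 1 is a doubling. A gene was called when its fold was at least 1.5 (0.585 on the log2 scale) and its p, adjusted by Benjamini-Hochberg over all 19076 genes, was under 0.05. Between 41687 and 42147 features had a value on an array. The direction of the ratio was read from liver and kidney marker genes, organs of the pool, whose list means lay between −3.24 and −2.54 and between −2.89 and −2.19. The mean of 8 epithelial markers was 0.70 to 1.02 in all mice. The Il10 feature did not differ by genotype in a called way (0.14 ± 0.09 at 7 weeks and 0.13 ± 0.08 at 12 weeks), and whether it reads the part of the gene that was removed is not known.

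At 7 weeks 3 of the 91 transferase genes were called between Il10-/- and C57 mice (2 higher, 1 lower), which is 3.3% beside 2.42% of all genes (1.4% higher, 1.01% lower). B3galt5, which builds the type 1 chain under the Lewis antigens, and St3gal4, which caps lactosamine chains with sialic acid, were higher, and Galnt15, one of the enzymes that start O-glycans, was lower. At 12 weeks 2 were called, 2.2% beside 2.52% of all genes (1.5% higher, 1.02% lower): B3galt5 was again higher and St3gal5, the GM3 synthase, was lower. The share of members called was therefore near that of all genes at both ages, and 86 of the 91 were called in no comparison. The share of all genes called in no comparison was not counted. In the same 7-week Il10-/- mice, chosen as without inflammation, the mean of 7 neutrophil markers was 0.14 to 0.49, against −0.32 to −0.21 in C57 mice of that age, and its part in the 7-week calls was not tested. What follows is a description of a few members with large differences within a family whose median difference was −0.01 at 7 weeks and 0.01 at 12 weeks.

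**Figure D1:**
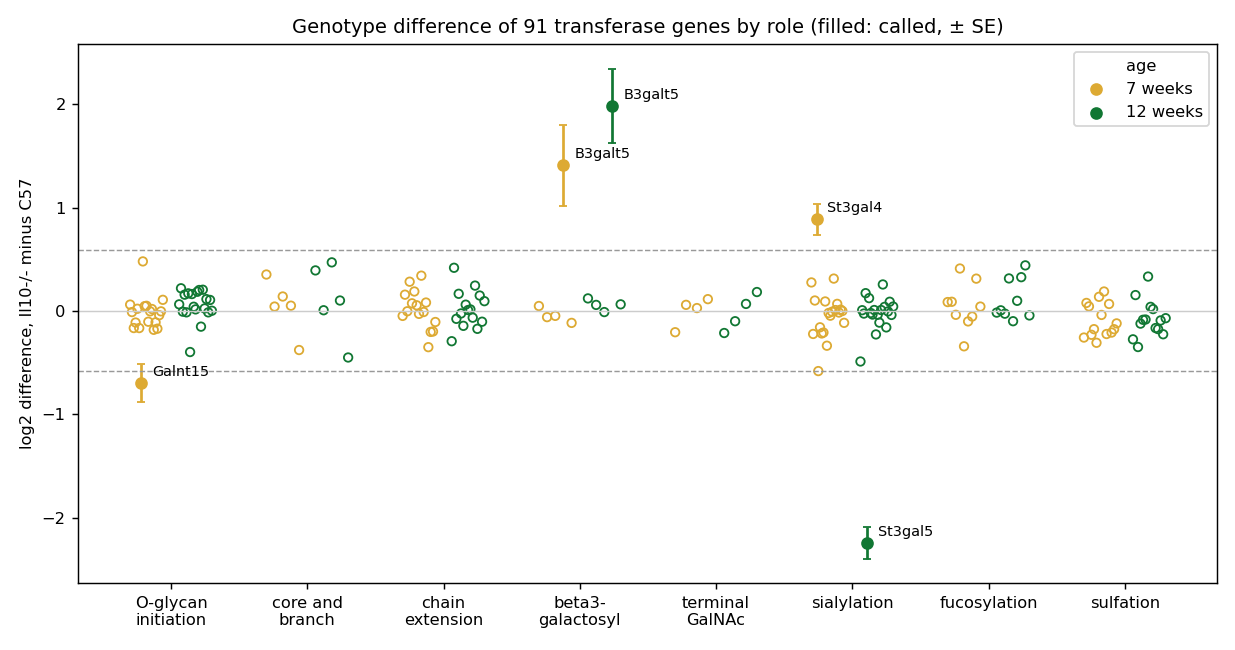
Log2 difference of Il10-/- minus C57 mice for each of the 91 transferase genes, grouped by role, at 7 weeks (yellow) and 12 weeks (green). Filled points with SE bars are the called genes, and dashed lines mark a 1.5-fold difference. The other points lie between the dashed lines, with St3gal5 at 7 weeks (−0.58) nearest to one.

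The bases before the starts of the 3 transferase genes with the largest called differences are shown, as the stretch where transcription of each begins. Windows of 250 bases before the start were read from RefSeq (GRCm38.p6), where 69 of the 91 members had one. They lie at chr6:72097358-72097607 on the + strand for St3gal5, at chr9:35116865-35117114 on the - strand for St3gal4, and at chr16:96235551-96235800, chr16:96273263-96273512 and chr16:96280782-96281031, all on the + strand, for the 3 starts of B3galt5. Capitals mark matches on either strand to any of 5 motifs: the GC box GGGCGG, the STAT core TTCNNNGAA, the Cdx core TTTAT, its longer form TTTATNG, which was replaced by the shorter one after a first search, and an interferon response core.
St3gal5: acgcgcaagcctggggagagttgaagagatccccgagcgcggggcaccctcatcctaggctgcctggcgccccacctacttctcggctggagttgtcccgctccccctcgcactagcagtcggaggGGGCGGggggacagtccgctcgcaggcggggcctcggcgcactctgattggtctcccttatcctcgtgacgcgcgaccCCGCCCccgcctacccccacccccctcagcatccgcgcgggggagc
St3gal4: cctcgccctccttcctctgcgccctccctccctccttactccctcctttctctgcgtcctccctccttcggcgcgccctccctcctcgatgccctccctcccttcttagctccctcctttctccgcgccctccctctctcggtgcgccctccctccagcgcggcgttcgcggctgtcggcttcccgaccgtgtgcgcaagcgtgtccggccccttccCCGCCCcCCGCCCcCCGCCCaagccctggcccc
B3galt5 start 1: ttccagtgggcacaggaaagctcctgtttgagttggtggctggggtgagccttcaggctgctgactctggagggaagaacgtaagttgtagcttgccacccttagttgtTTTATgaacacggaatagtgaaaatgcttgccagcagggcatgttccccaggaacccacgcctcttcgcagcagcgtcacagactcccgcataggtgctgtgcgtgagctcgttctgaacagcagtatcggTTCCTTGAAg
B3galt5 start 2: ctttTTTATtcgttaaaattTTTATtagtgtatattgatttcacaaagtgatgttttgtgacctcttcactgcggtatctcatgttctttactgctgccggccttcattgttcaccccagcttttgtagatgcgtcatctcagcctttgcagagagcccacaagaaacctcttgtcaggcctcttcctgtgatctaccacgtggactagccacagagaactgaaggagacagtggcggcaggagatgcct
B3galt5 start 3: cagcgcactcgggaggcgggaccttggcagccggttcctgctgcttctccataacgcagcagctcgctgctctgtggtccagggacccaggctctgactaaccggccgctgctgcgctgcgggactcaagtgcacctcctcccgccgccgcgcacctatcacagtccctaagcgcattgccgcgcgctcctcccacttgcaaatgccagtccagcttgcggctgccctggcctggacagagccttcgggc
The St3gal5 window held 2 GC boxes and that of St3gal4 held 3, side by side close to the start, whereas no B3galt5 window held any. The window of the first B3galt5 start held 1 STAT core and 1 Cdx core, and that of the second start held 2 Cdx cores. The longer Cdx form and the interferon response core matched none of the 5 windows, and no match overlapped a match to another motif. Among all 32851 windows of the same length, 32.7% held a GC box, 7.02% a STAT core, 37.3% a Cdx core, 9.81% its longer form and 2.98% an interferon response core, so these letters are common and are given as a description only. The GC share was 71.6% for St3gal5, 72.8% for St3gal4 and 54.0%, 45.2% and 67.2% for the starts of B3galt5, against a median of 52.4% over all windows.

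Sialylation held 3 of the 5 genes called in any comparison. St3gal5 adds the sialic acid that turns lactosylceramide into GM3. In the 7-week C57 mice its log2 ratio was −1.13, −1.15, −1.45 and −1.26, and in the 7-week Il10-/- mice it was −1.91, −1.78 and −1.80. In the 12-week C57 mice it was 0.04, 0.42, 0.79 and 1.05, and in the 12-week Il10-/- mice it was −1.65, −1.65, −1.62 and −1.77. The 12-week C57 mice therefore stood above all other mice, and at neither age did the genotypes overlap. At 12 weeks the gene was lower in Il10-/- mice by 4.75-fold (−2.25 ± 0.15, adjusted p = 1.71e-07). Within C57 it was higher at 12 than at 7 weeks by 3.54-fold (1.82 ± 0.15, adjusted p = 2.62e-05), while within Il10-/- the age difference was 0.16 ± 0.17 (95% interval −0.19 to 0.51, not called).

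At 7 weeks St3gal5 differed by −0.582 ± 0.166 (adjusted p = 0.0418), a size just under the fold threshold of 0.585, and it was called when C57 mouse 45 was left out (−0.65). The genotype difference itself differed between the ages by −1.66 ± 0.23 (adjusted p = 0.00245). For this test of the interaction 1.15% of all genes (0.493% higher, 0.655% lower) and 2 of the 91 members were called, both lower, the other being St3gal1. The contrasts of age and genotype share mice, so the large 12-week genotype difference and the large age difference in C57 rest in part on the same 4 C57 mice of 12 weeks.

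St3gal1 sialylates core 1 O-glycans. Its pattern shared the high 12-week C57 group, at a smaller size, but not the sign of the 7-week genotype difference. Its log2 ratio was −0.36, −0.22, −0.35 and −0.18 in C57 mice of 7 weeks, and −0.18, 0.22 and −0.04 in Il10-/- mice of 7 weeks. At 12 weeks it was 0.26, 0.23, 0.39 and 0.57 in C57 and −0.07, −0.39, −0.01 and −0.04 in Il10-/- mice. The 12-week C57 mice were again the highest, without overlap with any other group. Within C57 the gene was higher at 12 weeks by 0.64 ± 0.10 (adjusted p = 0.00677), 1 of 2 members called in that comparison (St3gal5 the other) beside 0.404% of all genes (0.231% higher, 0.173% lower). Without C57 mouse 66 that difference was 0.57 and fell under the fold threshold. The genotype difference was 0.28 ± 0.11 at 7 weeks and −0.49 ± 0.10 at 12 weeks (adjusted p = 0.151 and 0.00513, neither called), and the change between them was called (−0.77 ± 0.15, adjusted p = 0.0157).

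St3gal4 acts on lactosamine chains of glycoproteins and contributes to selectin ligands in mouse leukocytes. Its log2 ratio was 0.77, 0.66, 0.67 and 0.72 in C57 mice of 7 weeks and 1.26, 1.59 and 1.92 in Il10-/- mice of 7 weeks. The 12-week mice gave 0.36, 0.24, 0.09 and 0.79 in C57 and 0.45, 0.39, 0.71 and 0.63 in Il10-/- mice. The 3 Il10-/- mice of 7 weeks stood above every other mouse, and at 12 weeks the genotypes overlapped. The gene was higher in Il10-/- mice at 7 weeks by 1.85-fold (0.89 ± 0.15, adjusted p = 0.00181), and it was lower at 12 than at 7 weeks within Il10-/- by 2.07-fold (−1.05 ± 0.15, adjusted p = 0.00268), the 1 member called there beside 0.419% of all genes (0.299% higher, 0.121% lower). At 12 weeks the genotype difference was 0.17 ± 0.14 (95% interval −0.13 to 0.47), and the difference between the ages, −0.72 ± 0.21, was not called (adjusted p = 0.0865), although it was without Il10-/- mouse 75 (−0.88). Its 2 features gave the same picture, at 0.96 ± 0.25 and 0.81 ± 0.12 for the 7-week genotype difference. The other called genes, St3gal5, St3gal1, B3galt5 and Galnt15, had only 1 feature each. For them agreement between features could not be examined.

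B3galt5 was the transferase with the widest spread over the 15 mice. Its log2 ratio was 0.92, 0.92, 1.47 and 1.23 in C57 mice of 7 weeks, and 2.51, 2.35 and 2.77 in Il10-/- mice of 7 weeks. The 12-week values were 1.39, 0.29, −0.38 and −1.16 in C57 and 2.01, 1.98, 1.81 and 2.28 in Il10-/- mice. The genotypes did not overlap at either age, and the 12-week C57 mice varied far more among themselves (SD 1.08) than the 12-week Il10-/- mice (SD 0.19). The gene was higher in Il10-/- mice by 2.65-fold at 7 weeks (1.41 ± 0.39, adjusted p = 0.0358) and by 3.96-fold at 12 weeks (1.99 ± 0.36, adjusted p = 0.00181). The difference between these, 0.58 ± 0.53 (95% interval −0.55 to 1.71), was not called. The 7-week call was lost when any 1 of the 7 mice of that age was left out, with differences of 1.30 to 1.52, whereas the 12-week call held without each mouse in turn. The fit shares its spread over the 4 groups, so the 7-week SE also holds the wide spread of the 12-week C57 mice. Within the 7-week groups the SD was 0.26 in C57 and 0.21 in Il10-/- mice.

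**Figure D2:**
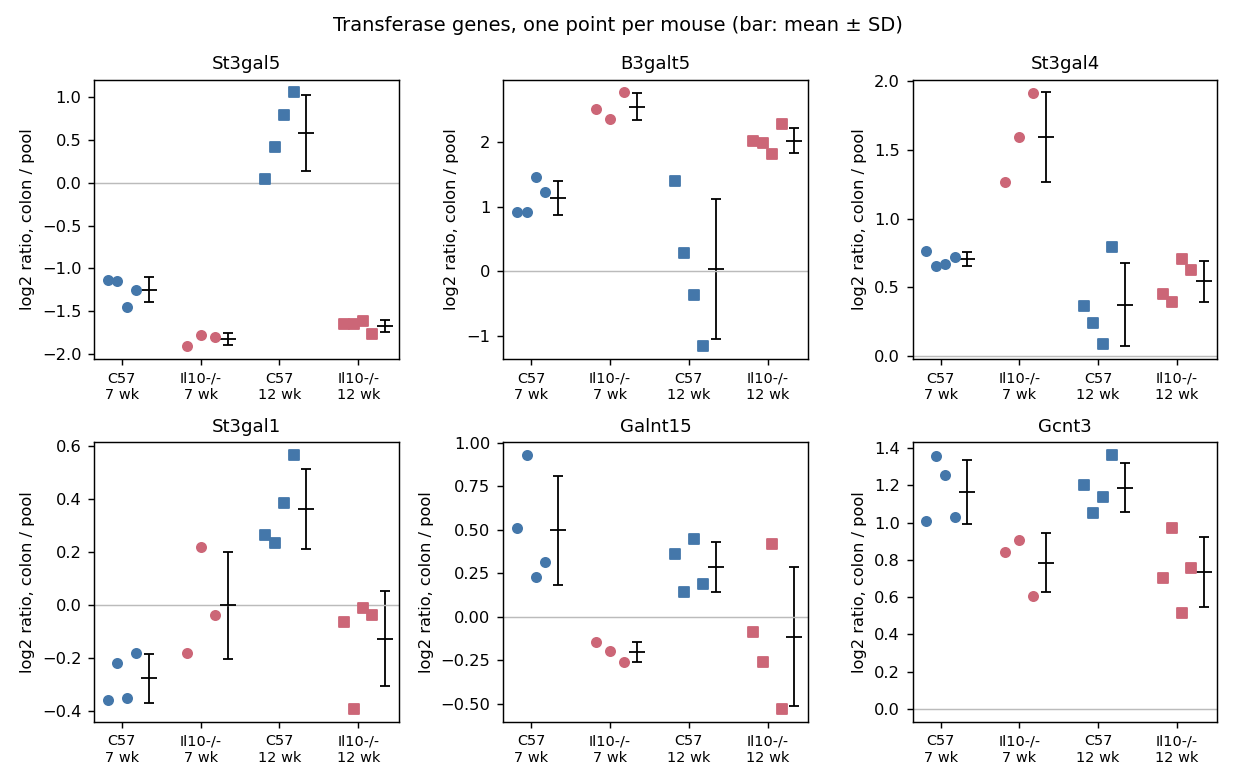
Log2 ratio of colon over pool for St3gal5, B3galt5, St3gal4, St3gal1, Galnt15 and Gcnt3 in each of the 15 mice, with C57 in blue, Il10-/- in red, circles for 7 weeks and squares for 12 weeks, and the mean ± SD of each group in black. The 12-week C57 mice are the highest for St3gal5 (0.04 to 1.05) and St3gal1 (0.23 to 0.57), the 7-week Il10-/- mice for St3gal4 (1.26 to 1.92), and B3galt5 spreads from −1.16 to 1.39 in 12-week C57 mice.

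In the 12-week C57 mice the order of the 4 mice for B3galt5 was the reverse of that for St3gal5. Mouse 63 had the highest B3galt5 (1.39) and the lowest St3gal5 (0.04), and mouse 66 the lowest B3galt5 (−1.16) and the highest St3gal5 (1.05). The order was not particular to this pair. Fut2, Fut4, C1galt1, B4galt4, B4galnt2, St6gal1, Galnt5, Galnt10 and Chst10 shared that of B3galt5, and B3galt1 and B4galnt1 that of St3gal5. How many of all genes had either order was not counted. The array of mouse 63 had the fewest features with a value (41687) and the largest SD of log2 ratios (0.51) of all arrays. Whether this order belongs to the 4 mice or to their arrays was not tested. Markers of absorptive cells were uneven in the same mice. The mean of 10 such markers was 0.19 to 0.68 in the 12-week C57 mice against −0.10 to 0.07 in the 7-week C57 mice and −0.28 to 0.16 in the 12-week Il10-/- mice, and it was lowest in mouse 63 and highest in mouse 66. That rise with age in C57 lay mostly in 2 members, Aqp8, a water channel (4.04 ± 0.42), and Slc26a3, a chloride-bicarbonate exchanger (1.15 ± 0.21). Both were also lower in Il10-/- mice at 12 weeks. Over the list the median age difference in C57 was −0.02, with 5 markers above 0 and 5 below, 2 called higher and 1, Slc9a3, called lower. Without Aqp8 and Slc26a3, left out after their values were seen, the list mean was −0.11 to 0.32 in the 12-week and 0.10 to 0.33 in the 7-week C57 mice, which overlapped. Between the genotypes 3 of the 10 were called lower at 12 weeks (median −0.14), and at 7 weeks 2 were called higher and 1 lower (median 0.14). St3gal5 was at its lowest level in the 7-week Il10-/- mice (−1.91 to −1.78). The part of these cells in the transferase values was not tested.

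Galnt15 was the one initiating enzyme called. Its log2 ratio was 0.51, 0.93, 0.23 and 0.32 in C57 mice of 7 weeks and −0.15, −0.20 and −0.26 in Il10-/- mice of 7 weeks, without overlap. At 12 weeks it was 0.36, 0.14, 0.44 and 0.19 in C57 and −0.09, −0.26, 0.42 and −0.53 in Il10-/- mice, where mouse 95 lay within the C57 range. The difference was −0.70 ± 0.18 at 7 weeks (1.62-fold lower, adjusted p = 0.0276) and −0.40 ± 0.17 at 12 weeks (adjusted p = 0.173, not called). The 7-week call was lost without mouse 43, 44, 75, 77 or 78, with differences of −0.73 to −0.55. Among the other 18 Galnt genes none was called in any comparison. Galnt12, an initiating enzyme known from the human colon, had the highest median of all 91 members, 1.63 (1.36 to 1.89 over the 15 mice), and was the only member above 1 in every mouse. Its genotype difference was −0.11 ± 0.12 at 7 weeks and 0.16 ± 0.11 at 12 weeks (95% intervals −0.37 to 0.14 and −0.08 to 0.39), so a difference of 1.5-fold lay outside both intervals. Galnt3, another epithelial initiating enzyme, differed by 0.00 ± 0.14 and 0.20 ± 0.13.

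None of the 5 genes of cores and branches was called by limma, where 2 at 7 weeks and 3 at 12 weeks had an unadjusted p under 0.05. Such p-values were frequent over the whole array, with 4050 of 19076 genes at 7 weeks and 4360 at 12 weeks. Among the 91 members they were 26 and 23. Gcnt3, the mucin-type enzyme that makes core 2 and core 4 branches, had a log2 ratio of 1.01, 1.36, 1.25 and 1.03 in C57 and 0.84, 0.91 and 0.61 in Il10-/- mice of 7 weeks. In the 12-week mice it was 1.20, 1.05, 1.13 and 1.36 in C57 and 0.70, 0.97, 0.52 and 0.75 in Il10-/- mice. Every Il10-/- mouse lay below every C57 mouse of either age. The difference was −0.38 ± 0.11 at 7 weeks and −0.45 ± 0.11 at 12 weeks (adjusted p = 0.0534 and 0.0114), both under 1.5-fold. C1galt1, the core 1 synthase, lay the other way, at 0.35 ± 0.13 and 0.39 ± 0.12 (adjusted p = 0.110 and 0.0473), and its chaperone C1galt1c1 at 0.04 ± 0.07 and 0.01 ± 0.07. The 2 features of C1galt1c1 were of opposite sign at 12 weeks, at −0.21 ± 0.08 and 0.22 ± 0.09 (neither called). Those of C1galt1 gave 0.54 ± 0.14 and 0.17 ± 0.14 at 7 weeks (neither called).

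Gcnt1, the core 2 enzyme of leukocytes and other cells, showed that features of 1 gene can part. As the mean of its 3 features it differed by 0.14 ± 0.10 at 7 weeks and 0.47 ± 0.10 at 12 weeks (adjusted p = 0.492 and 0.00451), under 1.5-fold. Feature B, which lists another RefSeq transcript than the other 2, read −0.88, −0.64, −0.75 and −1.17 in 7-week C57 mice and −2.22, −2.19, −2.28 and −2.45 in 12-week C57 mice. In Il10-/- mice it read −0.66, −0.66 and −0.83 at 7 weeks and −1.62, −1.17, −0.77 and −1.50 at 12 weeks. The 12-week C57 mice were below all others with that feature. Tested on its own it was lower with age in C57 by 1.42 ± 0.15 on the log2 scale (adjusted p over 42128 features = 1.78e-04) and higher in Il10-/- mice at 12 weeks (1.02 ± 0.15, adjusted p = 2.73e-04), whereas features A and C differed at 12 weeks by 0.01 ± 0.11 and 0.38 ± 0.22. Each feature's own test called 6 of the 165 member features at 7 weeks and 4 at 12 weeks, beside 2.14% and 2.46% of all features.

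**Figure D3:**
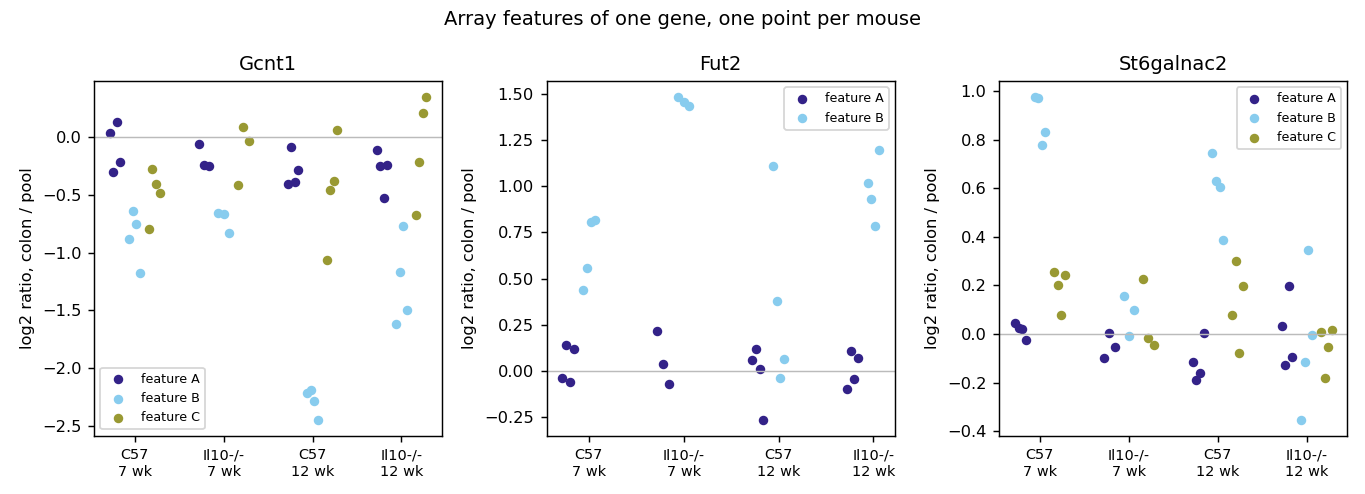
Log2 ratio of colon over pool by array feature for Gcnt1, Fut2 and St6galnac2, with 1 point per mouse, features told apart by colour and the 4 groups along the x axis. Feature B of Gcnt1 lies at −2.45 to −2.19 in 12-week C57 mice, below features A and C, and feature B of Fut2 lies above feature A in most mice.

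Fut2, which adds the fucose of the secretor (H) antigen in gut epithelium, had 2 features of the same transcript that differed likewise. Feature B read 0.44, 0.56, 0.81 and 0.82 in C57 and 1.48, 1.46 and 1.43 in Il10-/- mice of 7 weeks, without overlap (0.80 ± 0.20, adjusted p = 0.0225, called), and at 12 weeks 1.11, 0.38, −0.04 and 0.07 against 1.02, 0.93, 0.78 and 1.20 (0.60 ± 0.18, adjusted p = 0.0538). Feature A stayed between −0.26 and 0.22 in all mice, with differences of 0.02 ± 0.10 and 0.03 ± 0.09. The mean of both gave 0.41 ± 0.13 at 7 weeks and 0.31 ± 0.12 at 12 weeks (adjusted p = 0.0591 and 0.115, neither called). Which feature lies nearer to the level of the gene was not tested.

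St6galnac2, a sialyltransferase of O-glycans named here after its values were seen, was split in the same manner. Its feature B read 0.97, 0.97, 0.78 and 0.83 in C57 and 0.16, −0.01 and 0.10 in Il10-/- mice of 7 weeks. At 12 weeks it read 0.74, 0.63, 0.61 and 0.39 in C57 and −0.35, −0.11, 0.35 and −0.003 in Il10-/- mice, so that the genotypes did not overlap at either age. Its differences were −0.81 ± 0.13 and −0.62 ± 0.12 (adjusted p = 9.19e-04 and 0.0025, both called), against −0.07 ± 0.08 and 0.12 ± 0.07 for feature A and −0.14 ± 0.10 and −0.18 ± 0.09 for feature C. All 3 features list the same transcript. As the mean of the 3 the gene was not called at either age (−0.34 ± 0.07 and −0.23 ± 0.07).

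Fut8, which adds the core fucose of N-glycans, read −0.24, 0.08, 0.06 and 0.05 in C57 and 0.18, 0.37 and 0.34 in Il10-/- mice of 7 weeks. At 12 weeks it read −0.02, 0.10, −0.17 and 0.08 in C57 and 0.27, 0.48, 0.41 and 0.59 in Il10-/- mice. All Il10-/- mice lay above all C57 mice. The difference was 0.31 ± 0.10 at 7 weeks and 0.44 ± 0.09 at 12 weeks (adjusted p = 0.0571 and 0.0039), under 1.5-fold. Of the other fucosyltransferases, Fut7, which makes the sialyl Lewis x of leukocytes (named here after its values were seen), was at 0.33 ± 0.07 at 12 weeks, and Fut1 and Fut4 were at −0.02 ± 0.10 and −0.10 ± 0.12.

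Among the enzymes that lengthen chains, B3gnt3, which extends core 1, was at 0.16 ± 0.08 at 7 weeks and 0.42 ± 0.07 at 12 weeks (adjusted p = 0.279 and 0.00157). In the 12-week mice it read 0.39, 0.39, 0.32 and 0.47 in C57 and 0.98, 0.90, 0.67 and 0.70 in Il10-/- mice, without overlap. B4galt1, the main beta4-galactosyltransferase, was at 0.34 ± 0.07 at 7 weeks (adjusted p = 0.00529) and 0.01 ± 0.06 at 12 weeks. Its 3 features, which list the same transcript, parted at 7 weeks: 2 gave 0.56 ± 0.11 and 0.56 ± 0.10 (adjusted p = 0.00411 and 0.00348, under 1.5-fold) and the third −0.10 ± 0.08. B4galt4, which acts on sulfated chains among others, lay the other way, at −0.35 ± 0.10 at 7 weeks (adjusted p = 0.0464) and −0.17 ± 0.09 at 12 weeks. B3gnt7 was at 0.07 ± 0.07 and −0.02 ± 0.07. No member of this group of 15 reached 1.5-fold, and 4 at 7 weeks and 3 at 12 weeks had an unadjusted p under 0.05 in limma. Over all 19076 genes those counts were 4050 and 4360.

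The remaining sialyltransferases, sulfotransferases and terminal GalNAc-transferases held no gene called by limma, and among the 14 sulfotransferases 5 at 7 weeks and 4 at 12 weeks had an unadjusted p under 0.05. Over all 19076 genes those counts were 4050 and 4360. St6gal1, which sialylates N-glycans and is abundant in B cells and liver, differed by −0.22 ± 0.10 at 7 weeks and −0.02 ± 0.10 at 12 weeks (95% interval at 12 weeks −0.23 to 0.19). In the same 12-week Il10-/- mice the mean of 7 B and plasma cell markers was 0.60 to 0.75, against −0.24 to 0.01 in the 12-week C57 mice, with 4 of the 7 called higher. The part of these cells in the St6gal1 values was not tested. St6galnac1, the sialyl-Tn synthase, differed by 0.09 ± 0.09 and 0.01 ± 0.08. Chst11, a chondroitin sulfotransferase, was at 0.21, 0.24, 0.24 and 0.19 in 12-week C57 mice and −0.21, −0.10, −0.10 and −0.10 in 12-week Il10-/- mice, a difference of −0.35 ± 0.08 (adjusted p = 0.00717) that stayed under 1.5-fold. Chst14, of dermatan sulfate, was at −0.31 ± 0.09 at 7 weeks, and Chst4, which sulfates GlcNAc, at −0.22 ± 0.07 and −0.17 ± 0.07. B4galnt1, which acts on GM3 and related gangliosides, was at −0.21 ± 0.06 at both ages (adjusted p = 0.0554 and 0.0274). B4galnt2, which makes the Sd(a) antigen of the gut, was at 0.06 ± 0.10 and −0.10 ± 0.09.

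Small differences were more frequent than called ones. With the adjusted p alone and no fold threshold, 9 members passed at 7 weeks (4 higher, 5 lower), which is 9.89% beside 8.2% of all genes (4.12% higher, 4.08% lower). At 12 weeks 16 passed (8 higher, 8 lower), which is 17.6% beside 10.1% of all genes (5.17% higher, 4.94% lower). The 14 of these under 1.5-fold ran from −0.49 (St3gal1) to 0.47 (Gcnt1). At 7 weeks 28 members did not overlap between the genotypes (10 higher and 18 lower in Il10-/-), beside 23.1% of all genes, and at 12 weeks 15 (7 higher, 8 lower), beside 13.5%. For age, 13 members did not overlap in Il10-/- mice beside 13.5% of all genes, and 10 in C57 mice beside 8.62%. Of the 91 members 33 (36.3%) had a positive age difference in C57 mice, beside 50.3% of all genes. The median was −0.03 beside 0.00 over all genes.

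Levels against the pool were otherwise steady. The median log2 ratio over the mice lay between −0.5 and 0.5 for 73 members. The lowest medians were those of St3gal5 (−1.45), Chst7 (−1.35, range −1.50 to −0.97) and Galnt11 (−0.96), and the highest, after Galnt12, were those of B3galt5 (1.47), Gcnt3 (1.01) and Galnt4 (0.85). These say how the colon compares with the pool for each gene and set no order of expression between genes. Chst7, Galnt11 and Galnt4 are named for their levels after the values were seen. The range over the 15 mice exceeded 1 for 6 members (6.59% beside 7.24% of all genes), led by B3galt5 (3.93), St3gal5 (2.96) and St3gal4 (1.83), and its median was 0.49 for the members and 0.45 for all genes.

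**Figure D4:**
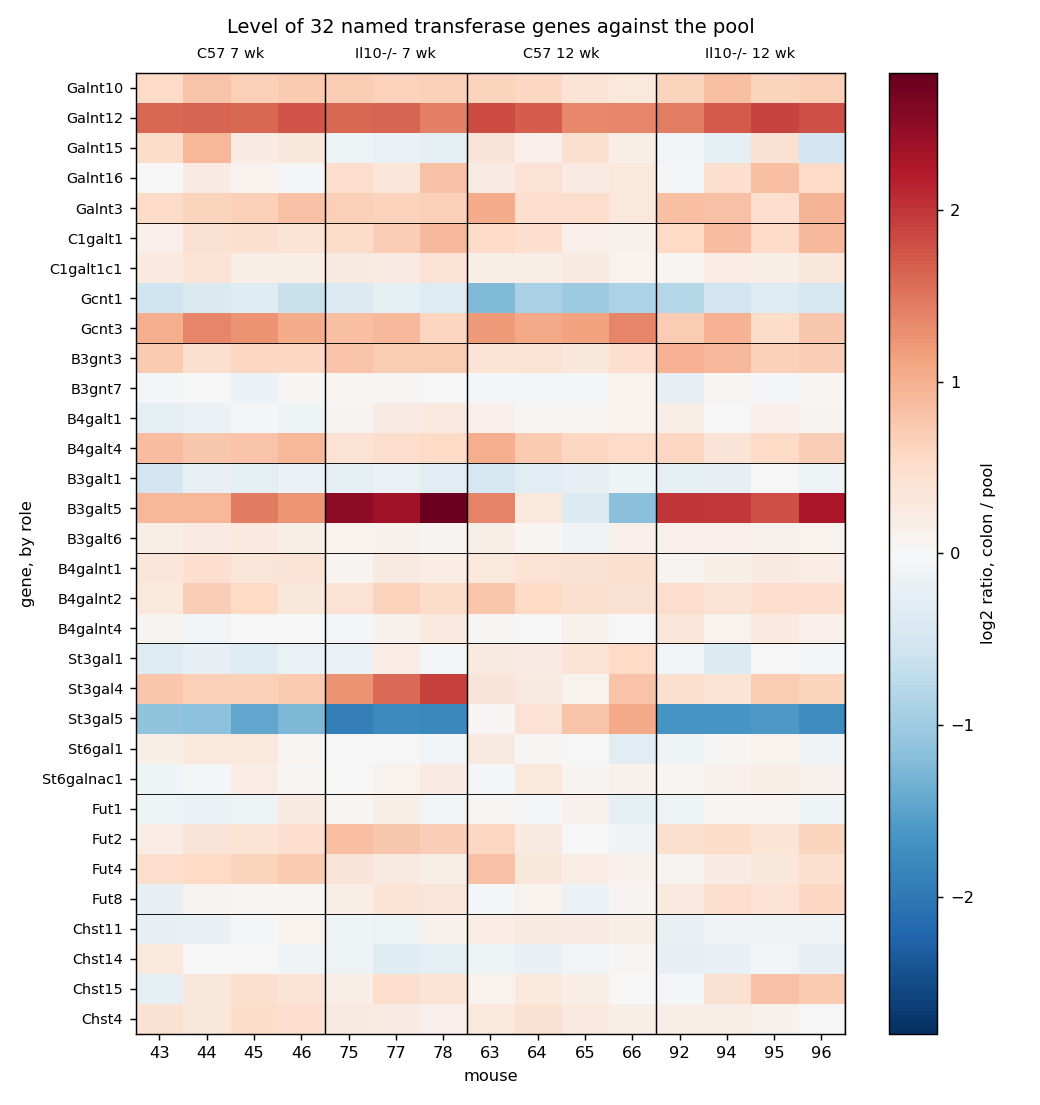
Log2 ratio of colon over pool (red above, blue below the pool) for the 32 named transferase genes in rows, grouped by role, and the 15 mice in columns, grouped by genotype and age. Galnt12 is above 1 in every mouse, Gcnt1 is below 0 in every mouse, and St3gal5 changes from blue to red only in the 12-week C57 mice.

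Genes around the transferases gave few calls. Of 27 measured genes that make or carry sugar donors, 1 was called higher and 1 lower at 7 weeks, and 1 lower at 12 weeks. Ugdh, which makes UDP-glucuronate, was lower at both ages (−1.33 ± 0.25 and −1.60 ± 0.23, adjusted p = 0.00364 and 2.78e-04). Gmds, of GDP-fucose synthesis, was higher at 7 weeks (0.66 ± 0.10, adjusted p = 6.91e-04) and at 0.49 ± 0.09 at 12 weeks. None of 27 other N- and O-glycan enzymes and none of 13 glycan-removing enzymes was called in any comparison by limma, with 11 and 7 at an unadjusted p under 0.05 at 7 weeks and 4 and 3 at 12 weeks. Over all 19076 genes 4050 at 7 weeks and 4360 at 12 weeks had such a p.

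Proteins that carry or read the chains were measured as well. At each age the shares called over all genes were those given above. Of 18 measured mucins and goblet cell products 2 were called at each age, both higher: the membrane mucins Muc4 (0.96 ± 0.10 and 0.78 ± 0.09) and Muc13 (0.92 ± 0.10 and 0.82 ± 0.10). Of 18 glycan-binding receptors 1 was called higher at 7 weeks and 2 at 12 weeks. Clec7a, the dectin that binds beta-glucan on myeloid cells, was higher at both ages (0.87 ± 0.09 and 1.74 ± 0.08), and the difference between the ages was called (0.87 ± 0.12, adjusted p = 0.00245). Lgals9, a galectin, was higher at 12 weeks (0.69 ± 0.14). The median difference over each of these 5 lists lay between −0.20 and −0.01 at both ages, beside −0.01 and 0.00 for all genes. Among the lists of immune, endothelial, smooth muscle and nerve markers, only the neutrophil list and the macrophage and dendritic list had genotype calls at both ages. No T cell marker and no neuron and glia marker was called between the genotypes at either age. The neutrophil list mean was 0.14 to 0.49 in 7-week Il10-/- mice against −0.32 to −0.21 in C57, and 0.29 to 0.87 against −0.33 to −0.12 at 12 weeks. At each age S100a8 and S100a9 were the 2 of 7 called higher, and the list's median difference was 0.09 and 0.14. Of 6 macrophage and dendritic markers 1 (Cd14) was called higher at 7 weeks and 2 (Cd14 and Fcgr3) at 12 weeks. Of 8 endothelial markers 2 (Cldn5 and Emcn) were called lower at 7 weeks, where the list mean was −0.57 to −0.43 in Il10-/- against −0.30 to −0.23 in C57 mice, and 3 of 8 smooth muscle markers were called lower at 12 weeks. Among 9 measured goblet markers 1 (Retnlb) was called higher at 7 weeks, where the list's median difference was −0.18. Retnlb and Spink4 were called at 12 weeks, 1 higher and 1 lower, with a median of 0.00. With age in C57 mice both were called higher. The part of all these cells in the values above was not tested.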

How the data were processed

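The authors made the values in limma from two-colour Agilent intensities: the deposited log2 ratios set colon RNA (Cy3) over a pooled reference of mouse tissues (Cy5), with loess inside each array and no subtraction of background. They were used as deposited. A feature needed values on 2 or more arrays per group, and features that list 1 gene were averaged to that gene, which left 10112 tested features out of the gene values. No slide or batch was given. Limma 3.58.1 (R 4.3.3) was fitted with lmFit and eBayes to 4 group means over all 15 arrays (11 residual degrees of freedom), with 5 contrasts. Summaries and figures used Python 3.11.15, pandas 2.3.3 and matplotlib 3.10.9. The fit was tested on simulated data. Members, roles and gene lists were chosen with earlier results of these data known. Named members were every called one, the 3 with the largest difference at either age in each role, and a fixed list of 17 well-known enzymes, 1 of which was not analysed here. Other genes named were up to 3 called per list. The number of arrays limits precision, and each mouse was 1 sample. Alternatives are named in the closing section. The medians of arrays were between −0.01 and 0.00.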

Additional observations from a re-analysis of the deposited data

Results flagged for a closer look

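In 6 of the 96 groups of 4 mice examined (32 named members), 1 mouse lay apart from the other 3 by Dixon's test, and chance gives about 1 in 20. B3gnt7 was 0.0988 in 12-week C57 mouse 66, against −0.06 to −0.05 in the others. Fut1 was 0.25 in 7-week C57 mouse 46, against −0.19 to −0.11. Fut8 was −0.24 in 7-week C57 mouse 43, against 0.05 to 0.08. St3gal1 was −0.39 in 12-week Il10-/- mouse 94, against −0.07 to −0.01. Chst11 was −0.21 in 12-week Il10-/- mouse 92, against −0.10 in the others. Chst14 was −0.0657 in 12-week Il10-/- mouse 95, against −0.23 to −0.20. The genotype difference changed with age by test of the interaction in limma for St3gal1 (−0.77, adjusted p = 0.0157) and St3gal5 (−1.66, adjusted p = 0.00245).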

How the results depend on the processing

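The counts of called members (3 at 7 weeks, 2 at 12 weeks, 2 for the interaction, 1 with age in Il10-/- and 2 with age in C57) moved most with the choice of feature and of threshold. With the most variable feature of a gene they were 5 at 7 weeks and 5 at 12 weeks, and with each feature alone 5 and 4. Of all features tested on their own 2.14% and 2.46% were called at these ages. Shares of all genes called with no fold threshold at these ages are given above. For the other settings they are not printed, so those counts describe the members alone. With no fold threshold 9, 16 and, for age in Il10-/-, 2 members were called. With a threshold of 2-fold 1 was called at 7 weeks, 1 for the interaction and 1 for age in C57. Limma's treat against 1.5-fold called 0 at 7 weeks, 1 at 12 weeks, 0 for the interaction, 0 for age in Il10-/- and 1 for age in C57, where eBayes gave 26 members at 7 weeks, 13 for the interaction and 6 for age in Il10-/- an unadjusted p under 0.05. Over all 19076 genes eBayes gave 4050, 3220 and 2605 such p-values in those comparisons. Leaving out each mouse in turn gave 1 to 3 at 7 weeks, 2 at 12 weeks, 2 to 3 for the interaction, 1 for age in Il10-/- and 1 to 3 for age in C57. The B3galt5 call at 7 weeks was also lost under scale normalization (1.25, adjusted p = 0.0542), and its age difference in C57 was called with array weights (−1.24) and without mouse 63 (−1.55). Small uncalled values changed sign: St6gal1 at 12 weeks (0.0865) and the C1galt1c1 interaction (0.25) with the most variable feature; Galnt10 at 7 weeks (0.0876), Chst11 at 7 weeks (−0.33) and C1galt1c1 at 12 weeks (−0.21) with each feature alone; and, on leaving out 1 mouse, Fut4 at 12 weeks (−0.184 to 0.0528, the latter without C57 mouse 63), Chst11 at 7 weeks (−0.0393 without Il10-/- mouse 78 to 0.112) and Chst11 with age in Il10-/- (−0.128 to 0.00524, the latter also without mouse 78). Median centring, quantile normalization, a fit of only the groups compared, a robust variance prior, features with values on all 15 arrays and features away from an array's most shared bright value were also tried. Of all named values over all settings 2717 kept their side of the threshold and their direction, apart from uncalled sign changes of at most 1 SE. The sign changes given above are those of more than 1 SE. The cause of these shifts was not tested. No paired analysis was possible because mouse numbers are not shared between the groups.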
